A study of Sus scrofa with 17 samples.

Results

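The genes CYP4A23, CYP2U1, ACSL5 and NR1H3, which handle or sense fatty acids and sterols, were followed through RNA-seq of 17 porcine kidneys; they are 4 of the 26560 genes in the count table. They were picked by gene identifier (ENSSSCG00000003891, ENSSSCG00000009151, ENSSSCG00000031789 and ENSSSCG00000013241), and the choice was made on their difference between G3 and G1, so their values in that comparison are a description and carry no test. CYP4A23 was also singled out for its wide spread between kidneys. In the RefSeq annotation of Sscrofa11.1, NR1H3 lies on chromosome 2 from 15315283 to 15336785 and ACSL5 on chromosome 14 from 122777135 to 122828054.

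CYP4A enzymes are cytochromes P450 of the endoplasmic reticulum that add a hydroxyl group to the end of a fatty acid chain. In the kidney they sit mainly in the proximal tubule and turn arachidonic acid into a hydroxylated product that acts on vessel tone and salt transport, and their genes are classic targets of the lipid-sensing receptor PPAR-alpha. CYP2U1 is another P450 that hydroxylates long-chain fatty acids near the end of the chain. ACSL5 couples long-chain fatty acids to coenzyme A, the step that admits them to oxidation or to lipid synthesis. NR1H3 encodes LXR-alpha, a nuclear receptor that binds oxysterols and, paired with RXR, switches on genes of cholesterol export and fatty acid synthesis.

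The kidneys came from wild-type female Dutch Landrace pigs aged 6 months to 1 year, each animal giving a single kidney, and were obtained from a slaughterhouse. Every kidney had 32 min of warm ischemia, 24 h of hypothermic machine perfusion (HMP) and then 5 h of normothermic machine perfusion (NMP), after which a biopsy was frozen. G1 (n = 5) received PBS, the vehicle, in both perfusions. G2 (n = 6) received extracellular vesicles of porcine urine progenitor cells (pUPC-EVs) in HMP only, and G3 (n = 6) received them in HMP and again in NMP. These are perfused organs outside the body with no untreated or unperfused kidney among them, so a level here is that of a kidney at the end of NMP.

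The libraries held 19270046 to 24736473 counted reads per kidney, with a median of 21504848. Levels are given as CPM (reads of a gene scaled to a common library size) after TMM scaling, and are compared between kidneys and not between genes, since no transcript lengths were used. The biopsies carried renal markers at high level: LRP2 and PCK1 of the proximal tubule averaged 2645 and 3537 CPM, and ALB, HBB and ADIPOQ, which mark liver, red cells and fat, averaged 0.791, 1.57 and 0.0156 CPM. Some other members of these lists were present, with APOA1 at 38.9 and TTR at 24.8 CPM on the liver list and FABP4 at 7.01 CPM on the fat list. The number of genes with at least 1 count ran from 18813 to 21049, and in 5 kidneys (G2 kidneys 1, 3 and 6 and G3 kidneys 2 and 6) it was 18813 to 19452 against 19882 to 21049 in the other 12. No G1 kidney was among these 5, a fact that touches CYP2U1 and NR1H3 below. Sample codes run on without a gap in 3 stretches, the meaning of which is not in the labels; they are called here series A (G1 kidneys 1 and 2, G2 kidneys 1 and 2, G3 kidney 1), B (G1 kidneys 3 and 4, G3 kidney 2) and C (the rest).

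CYP4A23 was low in the vehicle kidneys and ranged widely in both treated groups. In G1 its level was 4.86, 1.10, 0.286, 1.16 and 0.391 CPM in kidneys 1 to 5. In G2 it was 2.34, 1.80, 43.4, 0, 7.06 and 32.5 CPM in kidneys 1 to 6. In G3 it was 7.03, 13.0, 0.943, 66.2, 17.6 and 14.3 CPM in kidneys 1 to 6. In G3, 5 of the 6 kidneys therefore lay above every G1 kidney, and G3 kidney 3 lay within the G1 range. G2 was split, with 3 kidneys above all of G1, 2 inside its range and kidney 4 below it.

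The mean level of CYP4A23 was 1.56 ± 1.89 CPM in G1 (SD, n = 5), 14.5 ± 18.6 in G2 (n = 6) and 19.8 ± 23.5 in G3 (n = 6), so that in each group the SD was close to or above the mean. Medians were 1.10, 4.70 and 13.6 CPM. No G1 kidney exceeded 5 CPM, whereas 3 of 6 G2 kidneys and 5 of 6 G3 kidneys did. Above 10 CPM were 0 of 5, 2 of 6 and 4 of 6 kidneys. The order of the group levels was thus G1, G2, G3, but G2 and G3 did not differ beyond their spread, as 5 of the 6 G3 kidneys lay within the range of G2.

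**Figure D1:**
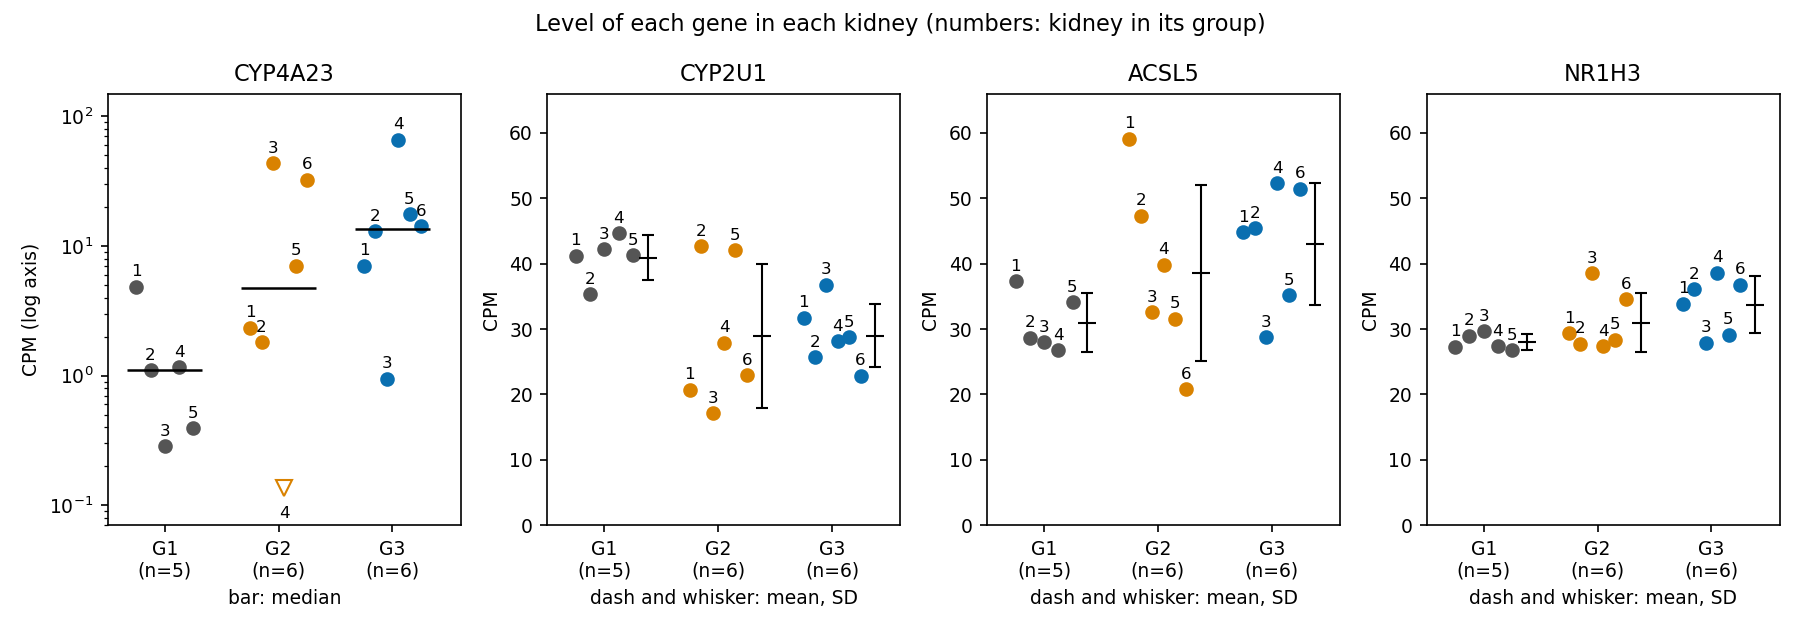
Level of CYP4A23 (log axis), CYP2U1, ACSL5 and NR1H3 in CPM in each kidney of G1 (grey), G2 (orange) and G3 (blue), with the kidney's number beside its point. Bars are medians for CYP4A23 and dashes with whiskers are means with SD for the other genes; the open triangle is G2 kidney 4, which had 0 counts of CYP4A23 and is drawn at its floor of 0.135 CPM. CYP4A23 spans 0.943 to 66.2 CPM within G3 alone, while NR1H3 stays between 26.8 and 38.6 CPM in all 17 kidneys.

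The kidney-to-kidney range of CYP4A23 was far beyond counting error. G3 kidney 4 held 1452 reads of the gene (66.2 CPM, 95% Poisson interval 62.9 to 69.7), and G1 kidney 3 held 6 reads (0.286 CPM, 0.105 to 0.622); these intervals cover counting error only. The highest kidney was 232-fold above the lowest kidney with any read. G2 kidney 4 had 0 reads, for which 3 reads, or 0.135 CPM, is taken as the floor, and the highest kidney was at least 491-fold higher than that floor. The upper end of the 95% Poisson interval of that kidney, 0.167 CPM, lies above the floor, so on that interval the bound is lower. The 3 highest kidneys (G3 kidney 4, G2 kidney 3 and G2 kidney 6) carried 66.4% of the CPM summed over all 17.

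Within groups the SD of log2 CPM of CYP4A23 was 1.46 in G1, 3.26 in G2 and 1.97 in G3. The pooled value of 2.41 stood at percentile 99.8 among the 4152 genes whose mean level was within a factor of 2 of its own. The same measure was 0.36 for CYP2U1 (percentile 79.8 of 4625 genes), 0.39 for ACSL5 (84.9 of 4524) and 0.17 for NR1H3 (17.9 of 4648). The wide spread of CYP4A23 was itself among the reasons for describing it, so its percentile is a description.

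The fitted log2 fold change of CYP4A23 in G3 against G1 was 3.65 (SE 0.836), given as a description. Without G3 kidney 4 it was 2.73 and without G1 kidney 1 it was 4.76. In that comparison 2 of 25719 genes (0.00778%), both lower in G3, passed an adjusted p under 0.05 with edgeR, and 1216 had an unadjusted p under 0.05. DESeq2 called 29, of which 21 were higher and 8 lower. The difference of mean log2 CPM between G3 and G1 was 1.55 in series A, 4.25 in series B and 4.57 in series C, where at least one side is a single kidney in each.

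Whether pUPC-EVs given in HMP alone go with another level of CYP4A23 was read from G2 against G1, a comparison that shares the G1 kidneys with the one the genes were chosen on. The log2 fold change was 3.20 (SE 1.06), higher in 3 of 6 G2 kidneys than in all of G1, with an unadjusted p of 0.00765 and an adjusted p of 0.840 (edgeR quasi-likelihood test, Benjamini-Hochberg over 25699 genes), so it did not pass. It was 1.17 with limma voom and sample weights, 1.12 with code series added to the model and 1.62 when the number of genes detected was added. Within series A, G2 minus G1 in mean log2 CPM was -0.18 for 2 against 2 kidneys, as both G2 kidneys lay between G1 kidney 2 (1.10 CPM) and G1 kidney 1 (4.86 CPM), and within series C it was 3.51 for 4 against 1.

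In G2 against G1, 0 of 25699 genes passed the adjusted threshold with edgeR, 901 (3.51%) had an unadjusted p under 0.05, and DESeq2 called 1. Between G3 and G2, 0 of 25701 genes passed with edgeR, 805 (3.13%) had an unadjusted p under 0.05, and DESeq2 called 3. For each of the 4 genes, the comparison of G3 with G2 shares the G3 kidneys with the one the genes were chosen on. CYP4A23 differed between G3 and G2 by a log2 fold change of 0.46 (SE 0.918, adjusted p = 1.0 with edgeR). The fold change turned to -0.45 without G3 kidney 4. With limma voom and sample weights it was 2.86, and its adjusted p was at least 0.934 in all 21 alternatives run.

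The other genes of the CYP4A family named in the reference were CYP4A21 and CYP4A24, which lie on chromosome 6, from 164672488 to 164715639 and from 164496928 to 164518189. In the pig CYP4A24 is a fatty acid hydroxylase of the kidney, and CYP4A21 is known as a bile acid hydroxylase of the liver. Copies in this family are close in sequence, and how the authors' counting placed reads that fit more than one copy is not given in the sources used here, so the values of all 3 are uncertain to that extent. CYP4A21 was also scattered, with means of 11.9 ± 18.0 CPM in G1 (SD, n = 5), 14.6 ± 11.0 in G2 (n = 6) and 67.9 ± 73.4 in G3 (n = 6). It ran from 0.667 CPM in G1 kidney 3 to 170.3 CPM in G3 kidney 4, a range of 255-fold.

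CYP4A24 varied less, 5.72-fold from 66.8 CPM in G3 kidney 3 to 382 CPM in G3 kidney 4. Its means were 142 ± 73.2 CPM in G1, 152 ± 84.3 in G2 and 201 ± 113 in G3. G3 kidney 4 was highest for all 3 CYP4A genes. CYP4A23 and CYP4A24 did not rank the kidneys alike. G1 kidney 3 had 0.286 CPM of CYP4A23 with 238 CPM of CYP4A24, and G2 kidney 6 had 32.5 CPM with 89.1 CPM. These 2 kidneys were picked after the values were seen.

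In G3 against G1 the log2 fold change was 2.50 for CYP4A21 (SE 0.931, adjusted p = 0.813 with edgeR) and 0.49 for CYP4A24 (SE 0.369, adjusted p = 0.813), and neither passed. Above all of G1 lay 3 of 6 G3 kidneys for CYP4A21 and 2 of 6 for CYP4A24. For CYP4A21, G3 minus G1 in mean log2 CPM came to 3.29 in series A and 6.36 in series B, but -1.07 in series C, whose single G1 kidney held 43.7 CPM. Over the 17 kidneys log2 CPM of CYP4A23 had a Pearson r of 0.558 with that of CYP4A21 (Spearman rho 0.542) and of 0.561 with that of CYP4A24 (rho 0.559). These values include the difference between G3 and G1 on which CYP4A23 was chosen, so the tests of all correlations over 17 kidneys used deviations from the group means, permuted within groups. On that footing r was 0.386 for CYP4A21 (adjusted p = 0.14; rho 0.373, adjusted p = 0.223) and 0.527 for CYP4A24 (adjusted p = 0.0711; rho 0.538, adjusted p = 0.0616), adjusted over 6 relations computed together after the data were seen, and neither passed. For all kidneys pooled but without the 2 kidneys farthest from the median, r came to 0.350 and 0.339. Within series C (n = 9) r was 0.477 and 0.683, and series A and B hold too few kidneys. Within G2 r was 0.538 for CYP4A21 and 0.522 for CYP4A24, and within G3 it was 0.682 and 0.9 (n = 6 each).

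**Figure D2:**
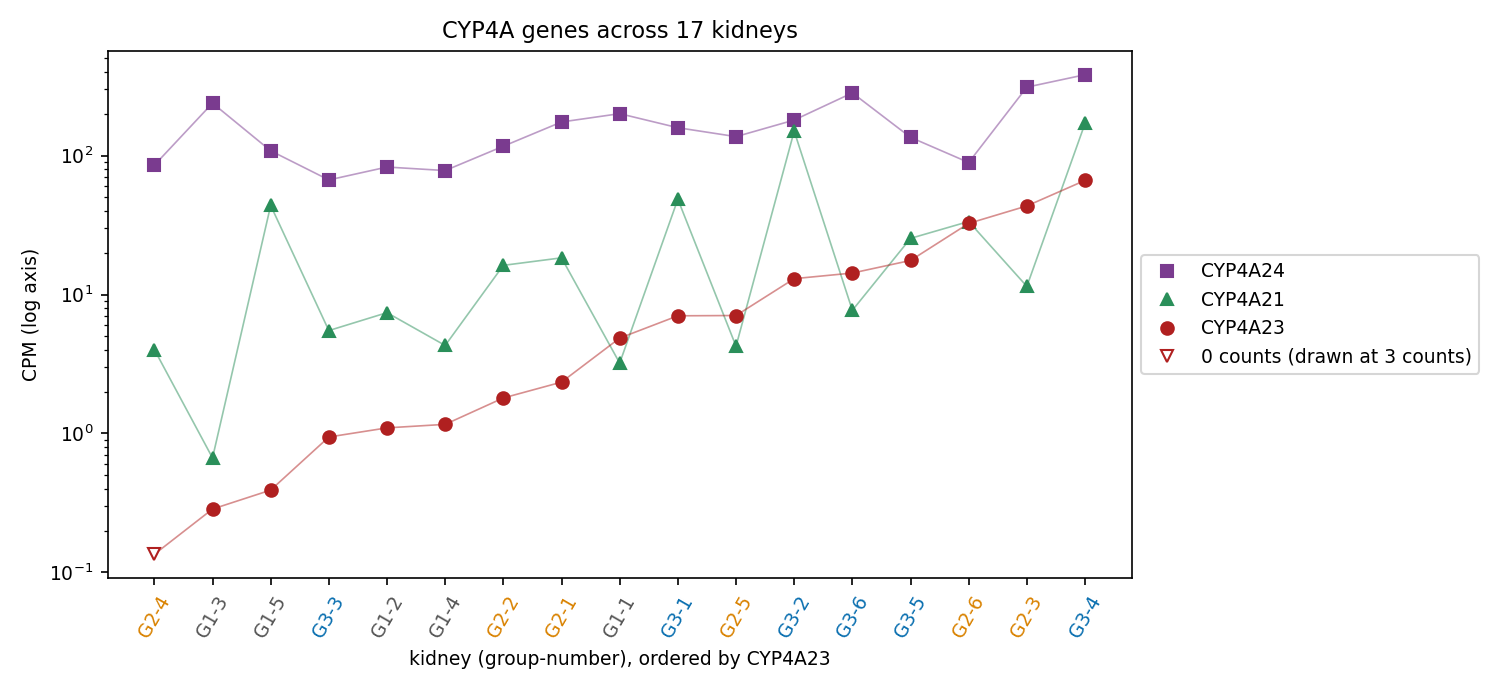
CPM (log axis) of CYP4A24 (squares), CYP4A21 (triangles) and CYP4A23 (circles) in the 17 kidneys, ordered from the lowest to the highest CYP4A23; axis labels give the group and kidney number. CYP4A24 stays between 66.8 and 382 CPM, while CYP4A23 climbs from 0 counts (open triangle) to 66.2 CPM and CYP4A21 follows no single order with it, as in G1 kidney 5 with 43.7 CPM of CYP4A21 and 0.391 CPM of CYP4A23.

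CYP2U1 was the gene of the 4 whose mean was lower in the treated groups. In G1 it was 41.2, 35.3, 42.2, 44.6 and 41.3 CPM in kidneys 1 to 5. In G2 it ran from 17.1 to 42.6 CPM with a median of 25.4, and in G3 from 22.9 to 36.8 CPM with a median of 28.4. In G3, 5 of 6 kidneys lay below every G1 kidney, and G3 kidney 3, at 36.8 CPM, lay inside. In G2, 4 of 6 kidneys lay below all of G1, while G2 kidneys 2 and 5, at 42.6 and 42.1 CPM, were at the G1 level.

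Mean CYP2U1 was 40.9 ± 3.42 CPM in G1, 28.9 ± 11.0 in G2 and 29.0 ± 4.84 in G3. G2 and G3 had the same mean within their spread, with a difference of 0.01 on the log2 scale (SE 0.202, adjusted p = 1.0 with edgeR). The log2 fold change was -0.50 (SE 0.129) in G3 against G1, as a description, and -0.27, -0.75 and -0.52 in mean log2 CPM within series A, B and C. In G2 against G1 it was also -0.50 (SE 0.208), with an unadjusted p of 0.0279 and an adjusted p of 0.840 (edgeR), so it did not pass.

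With all kidneys the G3 and G1 ranges overlapped for each of the 4 genes, in a comparison where 0.124% of the genes tested were higher in every G3 kidney than in every G1 kidney and 0.187% were lower. G3 kidney 3 was the single G3 kidney inside the G1 range for CYP4A23 and for CYP2U1, so that leaving it out, a choice made after the values were seen, parts the groups by construction for these 2 genes and is no sign of stability (0.329% of all genes were then higher and 0.376% lower in every G3 kidney). ACSL5 and NR1H3 overlapped without it too. Without it CYP4A23 averaged 23.6 ± 24.1 CPM in G3 (SD, n = 5). G3 kidney 3 also had the lowest ACSL5 and NR1H3 levels of its group, and the lowest CYP4A24 level of all 17 kidneys.

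The level of CYP2U1 ran with the number of genes detected in a library. The 5 kidneys with the fewest genes detected were also the 5 with the lowest CYP2U1, at 17.1 to 25.7 CPM against 27.9 to 44.6 CPM in the other 12. Over 17 kidneys Pearson r was 0.774 and Spearman rho 0.672, r was 0.672 without the 2 farthest kidneys, and within series C (n = 9) it was 0.899. Within groups r was 0.779 (adjusted p = 0.0185, permutation test), while rho, at 0.675, did not pass (adjusted p = 0.0592). With that number as a covariate the log2 fold change was -0.44 in G3 against G1 and -0.34 in G2 against G1. The part of the number of genes detected in the group difference was not tested.

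ACSL5 had a higher mean in both treated groups, with wide overlap. In G1 it was 37.3, 28.7, 28.0, 26.8 and 34.1 CPM in kidneys 1 to 5. In G2 it ran from 20.8 to 59.1 CPM with a median of 36.2, and in G3 from 28.7 to 52.3 CPM with a median of 45.1. Above all of G1 lay 4 of 6 kidneys of G3 and 3 of 6 of G2, G2 kidney 6 lay below it, and G2 held both the highest and the lowest kidney of the series.

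Mean ACSL5 was 31.0 ± 4.53 CPM in G1, 38.5 ± 13.4 in G2 and 43.0 ± 9.29 in G3. The log2 fold change in G3 against G1 was 0.46 (SE 0.153), as a description, and mean log2 CPM differed by 0.45, 0.73 and 0.25 within series A, B and C. G2 against G1 gave 0.32 (SE 0.207, adjusted p = 0.840 with edgeR), which came to 0.15 without G2 kidney 1. In series C the mean log2 CPM of the 4 G2 kidneys was below that of the single G1 kidney, by -0.17, with 3 of the 4 below it. G3 against G2 gave 0.16 (SE 0.209, adjusted p = 1.0 with edgeR), which came to 0.04 without G2 kidney 6 and to 0.33 without G2 kidney 1.

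NR1H3 lay in a narrow band in the vehicle kidneys. In G1 it was 27.3, 29.0, 29.7, 27.4 and 26.8 CPM in kidneys 1 to 5, a range no wider than counting error, since the 95% Poisson interval of G1 kidney 1 alone was 25.2 to 29.5 CPM. In G2 it ran from 27.4 to 38.5 CPM with a median of 28.9, and in G3 from 27.9 to 38.6 CPM with a median of 35.0. In G3, 4 of 6 kidneys exceeded all of G1, as did 2 of 6 in G2, and the others lay inside its range.

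Mean NR1H3 was 28.0 ± 1.23 CPM in G1, 31.0 ± 4.53 in G2 and 33.7 ± 4.33 in G3, an order in which G2 overlapped both neighbours. The log2 fold change was 0.26 (SE 0.112) in G3 against G1, as a description, and 0.27, 0.34 and 0.29 in mean log2 CPM within series A, B and C. In G2 against G1 it was 0.14 (SE 0.123, adjusted p = 0.840 with edgeR), and 0.07 without G2 kidney 3. In G3 against G2 it was 0.13 (SE 0.129, adjusted p = 1.0). Scaled by library size alone in place of TMM, the log2 fold changes were 0.16 in G3 against G1 and 0.05 in G2 against G1.

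NR1H3 ran opposite to CYP2U1 against the number of genes detected. Of the 5 kidneys with the fewest genes detected, 4 were among the 5 with the highest NR1H3. Those 5 kidneys had TMM factors of 0.825 to 0.983, against 0.966 to 1.095 in the others, and CPM is divided by that factor. The relation of NR1H3 to the number of genes detected was not computed with library size alone. The part of the TMM scaling in it was therefore not tested. Over 17 kidneys r was -0.663 and rho -0.598, and r was -0.544 without the 2 farthest kidneys and -0.828 within series C (n = 9). Within groups r was -0.698 (adjusted p = 0.0411, permutation test), while rho, at -0.615, did not pass (adjusted p = 0.0592). With that number as a covariate the log2 fold change of NR1H3 was 0.22 in G3 against G1 and 0.04 in G2 against G1, and its part in the difference was not tested. For CYP4A23 and ACSL5 the relation did not pass, with within-group r of -0.411 (adjusted p = 0.224; rho -0.382, adjusted p = 0.252) and 0.114 (adjusted p = 0.735; rho 0.113, adjusted p = 0.721) by permutation tests.

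**Figure D3:**
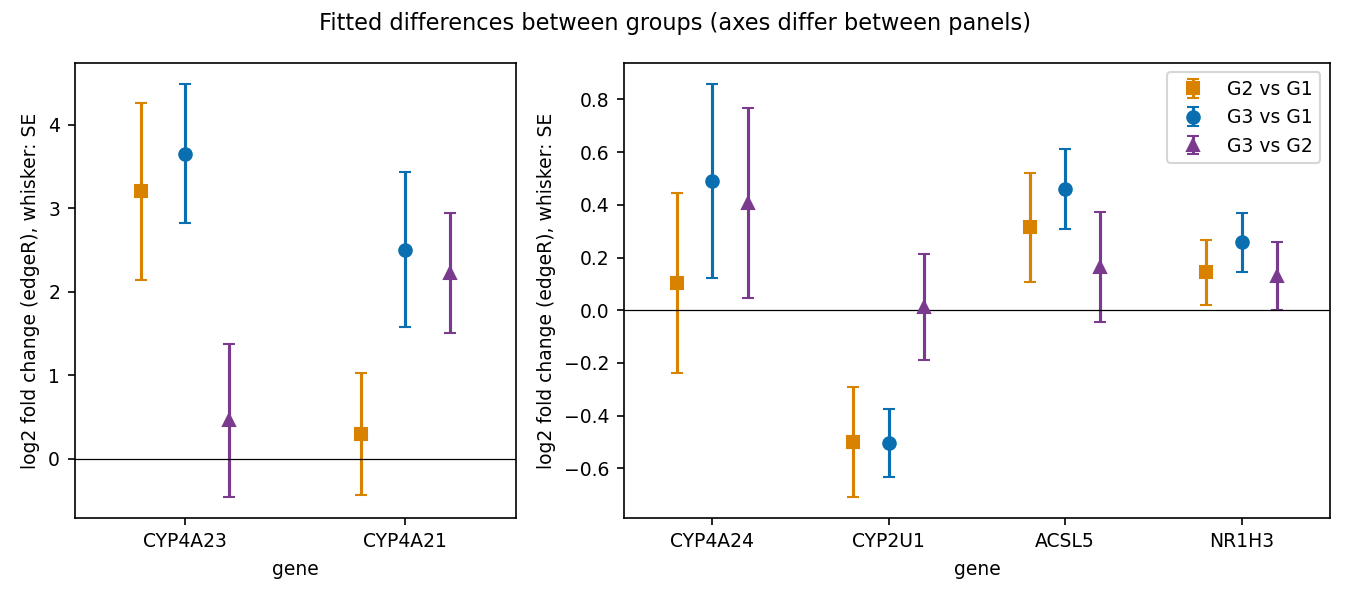
Fitted log2 fold changes (edgeR, whiskers are SE) of CYP4A23, CYP4A21, CYP4A24, CYP2U1, ACSL5 and NR1H3 for G2 against G1 (squares), G3 against G1 (circles) and G3 against G2 (triangles); the left and right panels have different vertical axes. CYP4A23 reaches 3.20 and 3.65 against G1, and CYP2U1, at -0.50 in both, is the only gene drawn below 0 against G1.

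In these bulk biopsies fewer cells of a type and less RNA per cell cannot be told apart. The summed level of 19 proximal tubule markers was 19150 to 27750 CPM in G1, 20210 to 36360 in G2 and 22150 to 34110 in G3, and that of 9 endothelial markers was 798.5 to 932.4, 678.9 to 1346 and 651.8 to 1208 CPM. None of the 19 or the 9 passed an adjusted p under 0.05 in any of the comparisons. The 12 relations between the 4 genes and the summed proximal tubule, endothelial and leukocyte markers were computed over 17 kidneys, with permutation tests within groups adjusted over the 12.

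NR1H3 had a Pearson r of 0.723 with the proximal tubule sum (Spearman rho 0.76). Taken within groups, rho of 0.759 passed (adjusted p = 0.0244, permutation test) and r of 0.699 did not (adjusted p = 0.0715). Both levels are divided by the same TMM factor of each kidney, which ran from 0.825 to 1.095. The relation was not computed with library size alone, so the part of that shared divisor in it was not tested. Over all kidneys r was 0.719 without the 2 farthest kidneys, 0.927 within series C, 0.897 within G2 and 0.564 within G3. CYP2U1 had the opposite sign, with r of -0.624 and rho of -0.564, which within groups were -0.602 (adjusted p = 0.115, permutation test) and -0.509 (adjusted p = 0.312) and did not pass, and with r of -0.543 without the 2 farthest kidneys and -0.697 within series C. CYP4A23, a gene of that segment's enzyme family, had r of 0.499 and rho of 0.534, within groups 0.414 (adjusted p = 0.38, permutation test) and 0.465 (adjusted p = 0.312), and did not pass, while r was 0.635 without the 2 farthest kidneys, 0.801 within series C, 0.758 within G2 and 0.374 within G3. ACSL5 had r of 0.695 and rho of 0.733 with the endothelial sum, within groups 0.662 (adjusted p = 0.115, permutation test) and 0.698 (adjusted p = 0.0659), which did not pass, with r of 0.667 without the 2 farthest kidneys, 0.644 within series C, 0.681 within G2 and 0.833 within G3. The part of cell type content in the group differences was not tested.

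**Figure D4:**
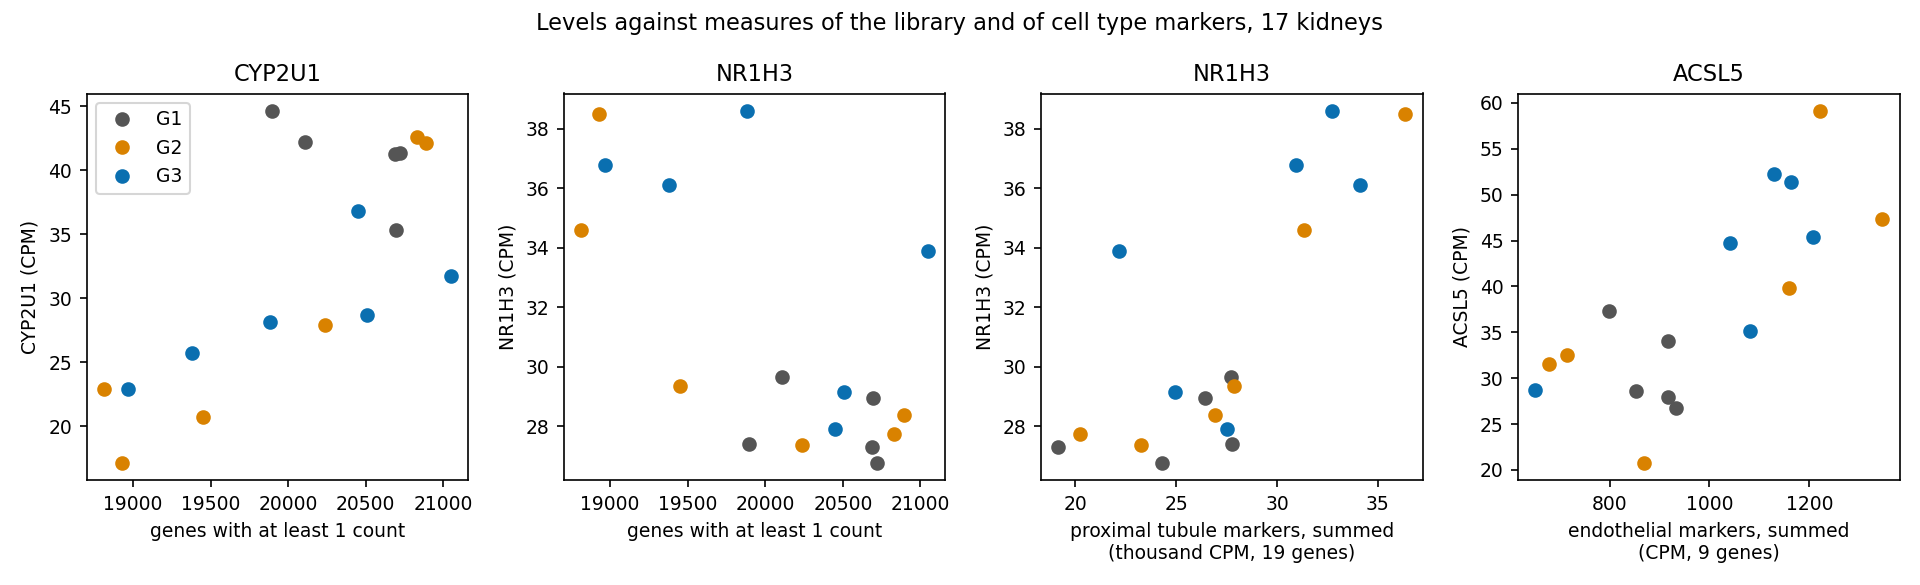
CPM of CYP2U1 and NR1H3 against the number of genes with at least 1 count, of NR1H3 against the summed proximal tubule markers, and of ACSL5 against the summed endothelial markers, 1 point per kidney (G1 grey, G2 orange, G3 blue). CYP2U1 climbs with the number of genes detected (r = 0.774 on log2 CPM) and NR1H3 descends (r = -0.663), and the kidneys at 34 CPM of NR1H3 or more include none of G1.

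Among the 6 kidneys of G2, whose SD of log2 CPM was the widest for all 4 genes, CYP4A23 and NR1H3 had r of 0.811 (adjusted p = 0.283, exact permutation test over 6 relations) and rho of 0.943 (adjusted p = 0.1), which did not pass. G2 kidneys 3 and 6, picked after the values were seen, were high in CYP4A23 and NR1H3 and low in CYP2U1. Their ACSL5 levels were 32.6 and 20.8 CPM, the latter the lowest of all. G2 kidney 1 was also low in CYP2U1, at 20.7 CPM, but had 2.34 CPM of CYP4A23 and 29.4 CPM of NR1H3.

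The genes closest in pattern to each were found by Pearson r of log2 CPM over the 17 kidneys among 11808 genes with a symbol and a mean of at least 1 CPM, as a description of libraries that share depth and composition. For CYP4A23 they were EGLN3, a prolyl hydroxylase that acts on hypoxia-inducible factor (r = 0.818), ACSF2, an acyl-CoA synthetase (0.795), and RIDA, a deaminase of reactive intermediates (0.78). For CYP2U1 they were PIGA, which starts the synthesis of GPI anchors (0.889), VANGL2, a planar polarity protein (0.888), and RESF1 (0.869). For ACSL5 they were ORAI3, a calcium channel subunit (0.845), CRNKL1, a splicing factor (0.841), and AMOTL1, a protein of cell junctions (0.84). For NR1H3 they were ZDHHC6, a palmitoyltransferase (0.927), KARS1, the lysyl-tRNA synthetase (0.89), and APOM, an apolipoprotein made in the proximal tubule and liver (0.886).

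Lists of the surrounding pathways were read from the same fits, and leaving aside the 4 genes themselves, none of them held a gene with an adjusted p under 0.05 with edgeR in any of the comparisons. Of 32 fatty acid hydroxylases, epoxygenases and their partners 20 were measured, including CYP4A23 and CYP2U1. Their median log2 fold change was 0.12 in G3 against G1, 0.09 in G2 against G1 and 0.06 in G3 against G2, beside -0.02, -0.005 and -0.002 over all genes. Apart from CYP4A23 and CYP2U1, which were picked on the comparison of G3 with G1, 2 genes of the list had an unadjusted p under 0.05 there, where 4.73% of all genes did. They were CYP4A21, described above, and EPHX3, an epoxide hydrolase named after its value was seen, at -0.72 (SE 0.294, adjusted p = 0.813 with edgeR). Of the members named by mean CPM, CYB5A, the cytochrome b5 that passes electrons to P450s, differed by 0.17 (SE 0.137) in G3 against G1. EPHX2, the soluble epoxide hydrolase, differed by 0.04 (SE 0.119) and EPHX1 by 0.36 (SE 0.25). ALDH3A2 differed by -0.22 (SE 0.15) and CYP1B1 by 0.12 (SE 0.251). POR, the reductase that feeds P450s, named outside the rule on mean CPM, differed by 0.12 (SE 0.201).

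Of 36 genes of fatty acid activation and uptake, 29 were measured, with a median of 0.02 in G3 against G1 and 0.10 in G2 against G1. ACSL1, another acyl-CoA synthetase, differed by 0.15 (SE 0.316) in G3 against G1, ACSL4 by -0.11 (SE 0.142) and ACSL3 by 0.02 (SE 0.146), beside the 0.46 of ACSL5. Apart from ACSL5, 4 of them had an unadjusted p under 0.05 in G3 against G1, as did 4.73% of all genes, and these are named after their values were seen. The fatty acid binding proteins FABP4 and FABP5 stood at -0.89 (SE 0.312) and -0.55 (SE 0.197) in G3 against G1, both with an adjusted p of 0.813 (edgeR). SLC27A6, a fatty acid transporter, stood at -0.71 (SE 0.243, adjusted p = 0.813), and ACOT13, a thioesterase that frees fatty acids from coenzyme A, at 0.36 (SE 0.143, adjusted p = 0.813).

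Of 37 LXR genes (NR1H3 itself among them), partners, co-regulators and targets, 33 were measured, with a median log2 fold change of 0.02 in G3 against G1, 0.04 in G2 against G1 and -0.02 in G3 against G2. NPC1, which moves cholesterol out of lysosomes, differed by 0.09 (SE 0.162) in G3 against G1, FASN, the fatty acid synthase, by 0.01 (SE 0.103) and the co-repressor NCOR1 by 0.02 (SE 0.128). Named outside the rule on mean CPM, FADS2, a fatty acid desaturase, stood at 0.35 (SE 0.193, adjusted p = 0.813 with edgeR) in G3 against G1 and 1.09 (SE 0.35, adjusted p = 0.840) in G2 against G1. ABCA1, the cholesterol exporter, differed in G3 against G1 by 0.24 (SE 0.272), and SREBF1, the regulator of fatty acid synthesis, by 0.01 (SE 0.148). NR1H2, the sister receptor LXR-beta, differed by -0.04 (SE 0.122).

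Of 40 genes of the PPAR-alpha axis and beta-oxidation, 39 were measured, among them CYP4A23. Their median log2 fold change was 0.06 in G3 against G1 and 0.11 in G2 against G1, with 66.7% and 79.5% of them above 0, beside 46.9% and 49.3% of all genes. In G3 against G2 the median was -0.05, with 30.8% above 0, beside 49.7% of all genes. The 19 proximal tubule markers ran alike, with 73.7%, 84.2% and 31.6% above 0 in the same order of comparisons and medians of 0.08, 0.14 and -0.05; their part in the list's values was not tested. CYP4A23 was picked on the comparison of G3 with G1 and is left aside there. Of the list's other genes, only HADHA and ACAA2 had an unadjusted p under 0.05 in G3 against G1 (edgeR), as did 4.73% of all genes. HADHA, a subunit of the mitochondrial trifunctional protein, stood at 0.53 (SE 0.248) in G3 against G1 and at 0.52 (SE 0.31) in G2 against G1. ACAA2, named after its value was seen, stood at 0.57 (SE 0.249) and 0.62 (SE 0.33). For both genes the adjusted p-values were 0.813 and 0.840 (edgeR). ACADM, which opens the oxidation of medium-chain fatty acids, differed by 0.14 (SE 0.136) in G3 against G1, and PPARA itself, named outside the rule on mean CPM, by -0.15 (SE 0.383).

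All 15 genes of sterol synthesis and uptake were measured, with medians of -0.02 in G3 against G1 and -0.01 in G2 against G1. SREBF2, which switches on sterol synthesis genes, differed by -0.10 (SE 0.118) in G3 against G1 and HMGCS1, an early enzyme of that pathway, by -0.10 (SE 0.136). Neither passed, and 1 of the 15, INSIG1, which holds sterol regulators in the endoplasmic reticulum, had an unadjusted p under 0.05, as did 4.73% of all genes, and is named for that, at -0.32 (SE 0.115, adjusted p = 0.813 with edgeR).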

How the data were processed

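RNA from biopsies of 17 porcine kidneys (G1, n = 5; G2 and G3, n = 6) was sequenced as stranded mRNA libraries. The authors trimmed adapters with cutadapt 4.0, aligned read pairs with STAR to Sscrofa11.1 and deposited raw read counts per Ensembl gene and kidney, without normalization; the counting program and its strand setting are not given in the sources used here. Their deposited DESeq2 table of G3 against G1 holds their own means, fold changes and p-values and was not used. Symbols came from a reference table (15094 genes) and, for CYP4A23, from the study.

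Groups were compared in pairs with edgeR 4.0.16 (quasi-likelihood test, TMM, genes with 1 count or more among those kidneys, Benjamini-Hochberg over all genes, threshold 0.05) in R 4.3.3, and the standard error was the log2 fold change over the root of the F statistic. CPM used TMM over 17 kidneys, and log2 CPM a prior count of 2. Correlations over 17 kidneys used 100000 permutations of deviations from group means within groups (two-sided, seed 1), or exact permutation within G2, in Python 3.11.15 with scipy 1.17.1. Alternatives were DESeq2 1.42.0, limma 3.58.1 voom, other scaling and filters, a fit of all groups, the code series, a replicate block and leaving out each kidney; the fits and correlations with the number of genes detected, the correlations within the CYP4A family and within G2, and overlaps without G3 kidney 3, and the permutation within groups were added after seeing the data. The fits were tested on simulated data. The 4 genes and all lists were chosen with earlier results of these data known. Named genes were the 4, other CYP4A genes, for each of the 4 the 3 with the highest Pearson r, and up to 6 list members by mean CPM; others are marked in the text. Depth of 19270046 to 24736473 reads per kidney leaves counting error large beside the spread for the lowest CYP4A23 values and for NR1H3 within G1. Other list members are given only by counts and medians, and some are not reported here.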

Additional observations from a re-analysis of the deposited data

Results flagged for a closer look

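One of 21 groups of kidneys tested for a value far from the others stood out, where chance flags about 1 in 20 (1.05 of 21). The summed level of 9 endothelial markers in G3 kidney 3 was 651.8 CPM, below the other kidneys of G3, and its gap to the nearest of them was 0.759 of the group's range on the log2 scale (critical value 0.625 for 6 kidneys). The same kidney had the lowest CYP4A23, ACSL5 and NR1H3 levels and the highest CYP2U1 level of G3.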

How the results depend on the processing

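The number of genes called between G3 and G1 was 2 with edgeR, 29 with DESeq2, 1 with limma voom, 1 with filterByExpr, 1 when every kidney had to reach 10 counts, 0 when the 3 groups shared one fit (1115 at an unadjusted p under 0.05) and 11 with the code series as a covariate. Leaving out each kidney gave 0 to 9. Between G2 and G1 edgeR called 0, DESeq2 called 1 and the code series fit called 2. Between G3 and G2 edgeR called 0, DESeq2 called 3, and leaving out each kidney gave 0 to 5 (5 without G2 kidney 2). Kidney numbers did not pair the samples: deviations of same-numbered kidneys correlated from -0.255 to 0.446. With the replicate block, 9 genes (5 higher, 4 lower) were called in G3 against G1, 0 in G2 against G1 and 7 in G3 against G2, and CYP4A23 had log2 fold changes of 3.54, 1.38 and 1.13.

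CYP4A23, CYP2U1, ACSL5 and NR1H3 kept their direction against G1 in every alternative that gave a value, with log2 fold changes in G3 against G1 of 2.73 to 4.76, -0.58 to -0.43, 0.35 to 0.55 and 0.16 to 0.31, and in G2 against G1 of 1.12 to 4.30, -0.65 to -0.34, 0.15 to 0.44 and 0.04 to 0.18. Between G3 and G2, CYP4A23 turned to -0.45 without G3 kidney 4 (leaving out each kidney gave -0.45 to 1.18), and CYP2U1, at 0.01, turned to -0.034 with library size only, to -0.0021 with the number of genes detected as a covariate, and lay from -0.10 to 0.15 when each kidney was left out; the cause was not tested. ACSL5 and NR1H3 lay from 0.04 to 0.33 and from 0.09 to 0.20 there. A minimum of 10 counts in every kidney left no value for CYP4A23. The SD of log2 CPM of CYP4A23 was 2.37 to 2.78 with another prior count or library size only. For NR1H3 it moved from 0.17 with TMM to 0.11 with library size only. For CYP2U1 it moved from 0.36 to 0.46, and for ACSL5 from 0.39 to 0.42. Depth limits the lowest CYP4A23 levels, which rest on 0 to 24 reads in 6 kidneys.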
